A study of Homo sapiens with 15 samples.

Results

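BAQ12 nanoparticles (NPs) were compared with Lys05 in MIA PaCa-2 cells, an established human pancreatic carcinoma line, by RNA sequencing. The comparison rests on 6 of the 15 libraries of the series, which are the 3 labelled BAQ12-1 to BAQ12-3 and the 3 labelled Lys05-1 to Lys05-3. Both agents were given at 5 µM for 24 h, so that dose and time were matched for this single pair of compounds. The other 9 libraries, from cells given vehicle (Ctrl), BAQ13 NPs or an agent labelled BAQ12O, entered the shared estimate of the spread, and vehicle values are given as the background. No group carries a transgene or a genetic change that the others lack, and the labels do not say whether the 3 libraries of a group came from separate cultures, so the p-values measure the spread between these libraries, which may be partly technical. The values were gene read counts that the authors had scaled to a common depth, called normalised counts here. Because libraries are scaled against each other, fewer cells of a kind and less RNA per cell cannot be told apart.

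Lys05 is a soluble bisaminoquinoline, a weak base that accumulates in lysosomes, raises their pH and blocks the last step of autophagy. BAQ12 was designed by joining the bisaminoquinoline head of Lys05 to a long hydrophobic tail as in the lysosomal detergent MSDH, and the hybrid assembles into NPs at neutral pH that fall apart in acid. Comparing the 2 at an equal molar dose therefore asks which transcripts differ between agents that share this head. The hydrophobic tail, the assembly into NPs and the potency all differ between them and cannot be told apart here. Lysosomes release the cholesterol that cells take up with low-density lipoprotein, and cationic amphiphilic drugs are known to hold it back there. When sterol in the endoplasmic reticulum falls, the SREBP transcription factors leave that membrane and switch on the genes of cholesterol and fatty acid synthesis.

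The files list 60107 genes, of which 22539 had a read in at least 1 library and 10495 passed the filter on low counts and were tested. Reads on genes numbered 1754599 to 2431874 with BAQ12 and 1948633 to 2230594 with Lys05. The keratins KRT8, KRT18 and KRT19 and the mesenchymal filament gene VIM were all expressed, whereas the epithelial markers EPCAM and CLDN7 were listed at 0 in all 6 libraries, as were CDH2, FN1 and TWIST1 of the mesenchymal list. All 8 acinar and endocrine pancreas markers were at 0, and the summed normalised counts of the 8 leukocyte markers were at most 11.0. The summed fibroblast markers, mostly COL1A2, were between 178 and 200 with BAQ12 and between 213 and 230 with Lys05, with DCN, LUM, PDGFRB and THY1 at 0 throughout. The endothelial list summed to 23.9 to 57.8 with BAQ12 and 43.7 to 56.9 with Lys05, all of it CDH5.

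Replicate 3 of BAQ12 stood apart from its group. Across the 10495 genes, its log2 values correlated with those of BAQ12-1 and BAQ12-2 at r = 0.930 and 0.939, whereas those 2 libraries correlated with each other at r = 0.982. Its highest correlation was with a library of another group, BAQ13-1 (r = 0.968). It lay more than 2-fold from the mean of the other two BAQ12 libraries at 1310 genes (12.5%), compared with at most 1.63% of genes for each Lys05 library against its own group. It had the smallest depth of the 6 libraries, and mitochondrial genes took 20.6% of its reads against 15.8% and 16.4% in BAQ12-1 and BAQ12-2 and 16.9 to 17.4% with Lys05. TMSB4X, which encodes an actin-binding peptide, was at 77.9 in this library and at 1545 and 1105 in the others, and COX17, a copper chaperone of cytochrome oxidase, was at 2.51 against 43.1 and 41.7. In the other direction ARSA, a lysosomal sulfatase, was at 60.3 against 12.8 and 11.9. The part of depth or read composition in these differences was not tested. Differences between BAQ12 and Lys05 are therefore given with and without BAQ12-3, and counts against vehicle without it. With that library left out, the correlations between BAQ12 and Lys05 libraries (r = 0.979 to 0.981) had nearly the same range as those within the groups (r = 0.979 to 0.982).

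**Figure D1:**
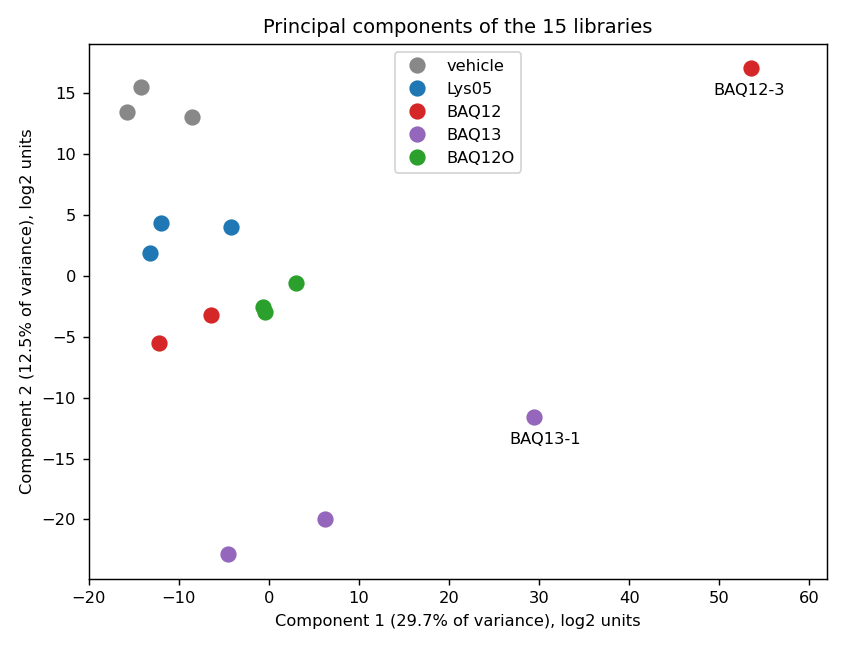
Principal components of the 15 libraries on the log2(normalised count + 1) scale, with component 1 (29.7% of the variance) across and component 2 (12.5%) upwards and 1 point per library coloured by group. BAQ12-3 sits alone at 53.5 on component 1, while BAQ12-1 and BAQ12-2 sit at -12.2 and -6.44.

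Few genes differed between the compounds, and most of those that were higher with BAQ12 encode enzymes of lipid synthesis. With all libraries, 17 genes passed an adjusted p-value of 0.05 by limma (0.162% of those tested), 14 of them higher with BAQ12 and 3 (0.0286%) lower. Without BAQ12-3 there were 26 genes (0.248%), 20 higher and 6 (0.0572%) lower. At an unadjusted p-value under 0.05 there were 752 genes (7.17%) and 553 (5.27%). The 2 sets shared 16 genes, all in the same direction, which is 94.1% of the first set and 61.5% of the second. In the first set the increases ran from 0.43 to 1.36 on the log2 scale, and the decreases from -0.51 to -0.55. Under the threshold used in the study, a fold change of at least 2 with an unadjusted p-value of at most 0.05, there were 52 genes (0.495%) with all libraries and 43 (0.410%) without BAQ12-3, with 17 in common. The genes past that threshold were mostly weakly expressed, with a median normalised count in the higher group of 13.7 and 11.2, compared with 57.1 over all genes tested, and 4 genes in each fit passed both criteria. For 8745 genes (83.3%) the 95% interval of the difference lay within 2-fold either way, and for 9035 (86.1%) without BAQ12-3. The count of 17 depended on the libraries included: it was 8 without any 1 of the Lys05 replicates and 26 without BAQ12-3. It was 0 by limma when only these 2 groups entered the fit, where 378 genes had an unadjusted p-value under 0.05 and edgeR and DESeq2 on all groups gave 17 and 26 genes.

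Cholesterol synthesis was the gene group with the largest difference. All 22 genes of the pathway list were tested and 21 had a higher mean with BAQ12 than with Lys05. Of these, 7 were called higher with all libraries (0.133% of all genes tested were called higher) and 9 without BAQ12-3 (0.191%), and none was called lower in either fit. The median log2 difference of the list was 0.59 with all libraries and 0.72 without BAQ12-3, beside medians of -0.01 and 0.01 over all genes tested. Summed over the 22 genes, the normalised counts were 3751, 3723 and 3924 in BAQ12-1 to BAQ12-3, 2469, 2355 and 2406 in the Lys05 libraries and 2158, 2157 and 2152 with vehicle. Every BAQ12 library, replicate 3 included, thus lay above every Lys05 library, and every Lys05 library above every vehicle library. In BAQ12-3, 10 of the genes were above both other BAQ12 libraries, 9 below both and 3 between.

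Among the early steps, ACAT2, which joins the first pair of acetyl-CoA units, had normalised counts of 239, 269 and 214 with BAQ12 and 178, 164 and 128 with Lys05. The groups did not overlap, and the gene was higher with BAQ12 by a log2 difference of 0.62 (adjusted p = 0.0427, limma) in all libraries and by 0.71 (adjusted p = 0.00182) without BAQ12-3. HMGCS1 (ENSG00000112972; chromosome 5, 43289395 to 43313512 in GRCh38), the synthase that supplies HMG-CoA, was at 183, 152 and 71.6 with BAQ12 and at 62.8, 64.6 and 70.9 with Lys05. BAQ12-1 and BAQ12-2 were more than 2-fold above the Lys05 libraries and BAQ12-3 was level with them. Accordingly its log2 difference was 0.92 (95% interval 0.45 to 1.39, adjusted p = 0.203) with all libraries and 1.32 (1.07 to 1.58, adjusted p = 2.91e-07) without BAQ12-3.

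In the isoprenoid steps, FDPS (ENSG00000160752; chromosome 1, 155308748 to 155320666), the farnesyl diphosphate synthase, had normalised counts of 662, 640 and 1041 with BAQ12 and 369, 326 and 373 with Lys05. All BAQ12 values were above all Lys05 values, BAQ12-3 the most, and the fold was 2.14 (log2 1.10, standard error 0.14, adjusted p = 0.00162) with all libraries and 1.83 (log2 0.87, standard error 0.09, adjusted p = 2.58e-06) without BAQ12-3. IDI1, which isomerises the isoprenoid unit, was likewise lowest in BAQ12-3 within its group, at 87.1, 79.1 and 35.2 with BAQ12 and 54.3, 37.5 and 40.1 with Lys05. It was called only without BAQ12-3 (log2 0.92, adjusted p = 0.0199; 0.51 and 0.702 with it). MVD, the mevalonate diphosphate decarboxylase, was at 54.1, 43.4 and 86.7 against 25.6, 27.1 and 32.7 and did not pass in either fit (log2 1.03 and 0.76, adjusted p = 0.130 and 0.202).

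The first steps committed to sterols were all higher. FDFT1, the squalene synthase, was at 459, 476 and 364 with BAQ12 and 250, 248 and 234 with Lys05, a log2 difference of 0.82 (standard error 0.12, adjusted p = 0.00441) that became 0.94 (standard error 0.10, adjusted p = 3.17e-06) without BAQ12-3. SQLE, the squalene epoxidase, was at 222, 225 and 256 against 154, 154 and 160, with a log2 difference of 0.58 (adjusted p = 0.0138) and 0.52 (adjusted p = 0.0132). LSS (ENSG00000160285; chromosome 21, 46188141 to 46228824), which closes the rings to lanosterol, was at 103, 90.1 and 151 against 43.7, 53.1 and 48.5. For none of the 3 genes did the groups overlap, and the fold for LSS was 2.29 with all libraries (adjusted p = 0.00550) and 1.97 without BAQ12-3 (adjusted p = 0.00182).

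Downstream of lanosterol, MSMO1 (ENSG00000052802; chromosome 4, 165327623 to 165343160), the sterol C4-methyl oxidase, had close values in the BAQ12 libraries. Its normalised counts were 166, 187 and 178 with BAQ12, 82.0, 73.9 and 56.0 with Lys05 and 69.7, 51.4 and 75.3 with vehicle. The BAQ12 libraries were all more than 2-fold above the highest Lys05 library, and the Lys05 and vehicle libraries overlapped. The fold between BAQ12 and Lys05 was 2.51 (log2 1.33, standard error 0.14, adjusted p = 0.000525) with all libraries and 2.50 (adjusted p = 3.17e-06) without BAQ12-3. EBP (ENSG00000147155; chromosome X, 48521158 to 48528716), the sterol isomerase, was at 372, 390 and 322 against 209, 231 and 217, a log2 difference of 0.72 (standard error 0.10, adjusted p = 0.00231) that was 0.80 without BAQ12-3. Other late enzymes were not called. SC5D and DHCR7, which act near the end of the pathway, had log2 differences of 0.94 and 0.73 without BAQ12-3 (0.92 and 0.53 with it), with 95% intervals that lay above 0 and adjusted p-values without it of 0.267 and 0.191. LBR and TM7SF2, which both encode sterol C14-reductases, had log2 differences without BAQ12-3 of -0.17 (95% interval -0.36 to 0.02) and 0.14 (-0.19 to 0.47), and of -0.13 and 0.10 with it.

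**Figure D2:**
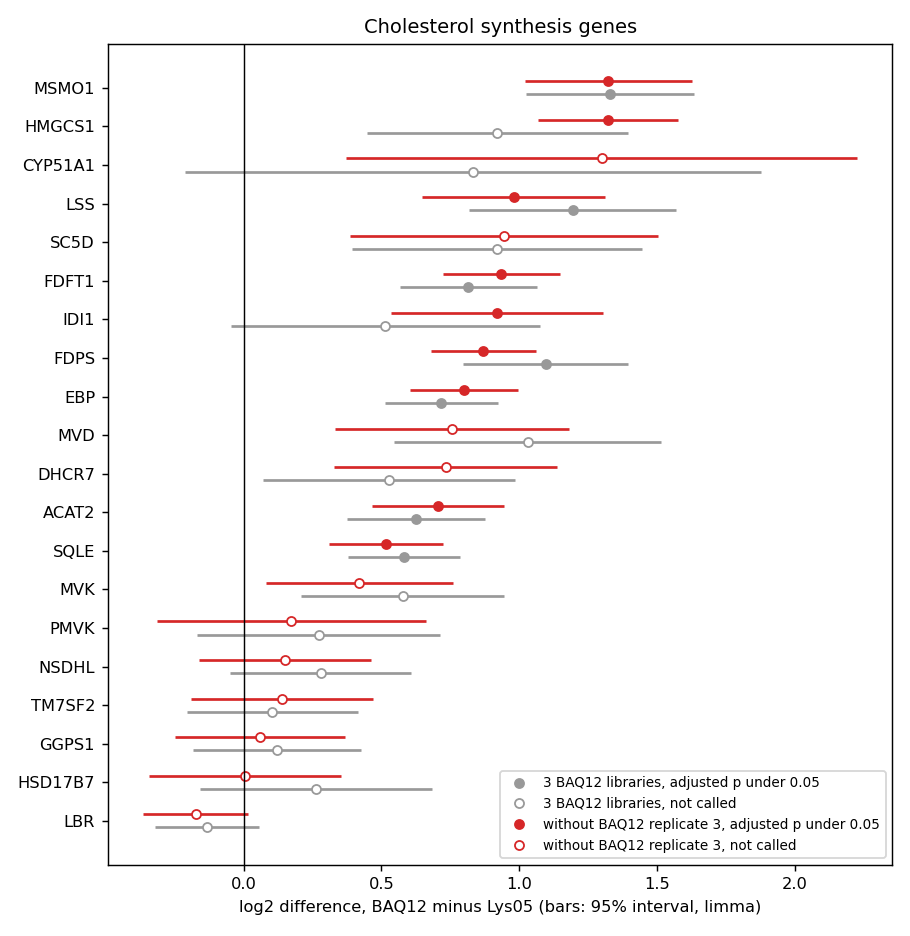
The log2 difference between BAQ12 and Lys05 for genes of the cholesterol synthesis list (points) with its 95% interval from limma (bars), in grey with all 3 BAQ12 libraries and in red without BAQ12-3. Filled points mark an adjusted p-value under 0.05, which 7 genes reached in grey and 9 in red, and all but LBR lie to the right of 0.

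The promoters of the genes that moved together were read from RefSeq (GRCh38.p14), as windows from 250 bases before to 50 after each gene's start. Of the 21 genes called higher with BAQ12 in either fit, 10 matched a window by symbol. A known SREBP site, TCACCCCAC on either strand, was in none of these windows and in 43 of the 7747 tested genes with a window (0.555%). At so low a share, its absence from 10 genes was likely in any case and tells nothing about the group. The CCAAT box, the site of the factor NF-Y that is known to act beside SREBPs, was searched as CCAAT on either strand, a motif chosen after the values had been seen. It was in a window of all 10 genes (100%), of 14 of the 17 cholesterol synthesis genes with a window (82.4%) and of 43.7% of the tested genes. The first 2 of these sets overlap. The share was 68.4% in the fatty acid list and 64% in the integrated stress response list, which had no called member. It was 53.3% for the V-ATPase and 37.5% each for sterol sensing and lysosomal hydrolases. The GC box GGGCGG was likewise in all 10 called genes, and in 79.4% of the tested genes. Windows with these letters are described here without a claim that they are bound. The stretches before the start of MSMO1 (chr4:165327419-165327668), FDPS (chr1:155308616-155308865) and EBP (chrX:48521558-48521807), all on the plus strand, end at the start of a RefSeq transcript that lies inside the GENCODE gene bounds given above, so each overlaps those bounds. They are shown as 3 of the genes called higher in both fits, with each CCAAT box (or its complement ATTGG) in capitals.
MSMO1: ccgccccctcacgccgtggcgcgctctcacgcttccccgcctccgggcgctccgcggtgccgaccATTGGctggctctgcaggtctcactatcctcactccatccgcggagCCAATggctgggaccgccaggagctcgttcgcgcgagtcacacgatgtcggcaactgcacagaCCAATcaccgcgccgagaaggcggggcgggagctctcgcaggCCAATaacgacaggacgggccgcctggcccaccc
FDPS: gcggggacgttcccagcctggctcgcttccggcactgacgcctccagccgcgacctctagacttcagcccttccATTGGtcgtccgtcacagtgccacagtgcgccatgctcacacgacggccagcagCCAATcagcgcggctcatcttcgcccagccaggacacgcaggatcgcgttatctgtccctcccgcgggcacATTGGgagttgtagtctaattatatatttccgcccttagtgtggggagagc
EBP: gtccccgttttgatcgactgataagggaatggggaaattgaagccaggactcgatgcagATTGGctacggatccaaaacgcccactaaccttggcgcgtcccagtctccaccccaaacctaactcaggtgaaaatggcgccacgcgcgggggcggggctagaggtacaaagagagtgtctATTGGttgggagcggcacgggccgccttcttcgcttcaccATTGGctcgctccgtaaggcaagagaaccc
The box occurs 4 times before MSMO1 and 3 times before each of FDPS and EBP.

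Genes of acetyl-CoA supply and fatty acid synthesis were higher in part. Of the 18 tested members of this list, 2 were called higher with all libraries and 4 without BAQ12-3 (0.133% and 0.191% of all genes tested were), none lower, and the median log2 difference was 0.11 and 0.22. ACSS2 (ENSG00000131069; chromosome 20, 34872146 to 34927962), the synthetase that makes acetyl-CoA from acetate, was at 62.4, 57.0 and 67.8 with BAQ12, at 26.6, 18.7 and 26.1 with Lys05 and at 15.8, 30.1 and 29.4 with vehicle. All BAQ12 libraries were above the other 6, and the fold against Lys05 was 2.58 (log2 1.36, standard error 0.21, adjusted p = 0.00658) with all libraries and 2.47 (adjusted p = 0.00203) without BAQ12-3. FASN, the fatty acid synthase, was at 915, 973 and 1122 with BAQ12 and at 626, 624 and 684 with Lys05, without overlap, and the fold was 1.55 (adjusted p = 0.00162) and 1.46 (adjusted p = 4.65e-05). ACLY, which makes cytosolic acetyl-CoA from citrate, was at 511, 468 and 329 against 333, 309 and 316, and SCD, the stearoyl-CoA desaturase, at 2557, 2569 and 2260 against 2075, 2201 and 2042. For both genes BAQ12-3 was the lowest BAQ12 library, and both were called only without it (log2 0.61, adjusted p = 0.00347, and 0.28, adjusted p = 0.0487). The carboxylase ACACA (log2 0.08, 95% interval -0.16 to 0.32) and the elongase ELOVL5 (0.00, -0.16 to 0.16) were not called without BAQ12-3, nor with it (log2 0.02 and -0.04).

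The regulators of the pathway followed it little. Of 17 tested genes of sterol sensing and low-density lipoprotein uptake, none was called with all libraries and 1 was called higher without BAQ12-3. Over all genes tested, 0.133% and 0.191% were called higher. The median log2 difference of the list was -0.20 with all libraries and -0.01 without BAQ12-3. That gene was INSIG1 (ENSG00000186480; chromosome 7, 155297776 to 155310235), which holds SREBPs in the endoplasmic reticulum and is itself a target of theirs, at 221, 188 and 157 with BAQ12 and 145, 126 and 133 with Lys05. Its groups did not overlap, and the log2 difference was 0.47 (adjusted p = 0.295) with all libraries and 0.60 (adjusted p = 0.0164) without BAQ12-3. SREBF2, the SREBP gene for cholesterol synthesis, had a log2 difference of 0.04 (-0.19 to 0.27) without BAQ12-3 and 0.17 with it, and SREBF1 one of -0.42 (-0.82 to -0.02, adjusted p = 0.921) and -0.37. Among 7 tested genes of sterol efflux none was called. ABCG1, a sterol exporter driven by liver X receptors, was at 14.7, 8.50 and 11.3 with BAQ12 and 25.6, 28.1 and 21.5 with Lys05. The groups were separate, yet at these low counts the log2 difference of -1.08 (95% interval -1.72 to -0.44) had an adjusted p-value of 0.308, and it was -1.09 (adjusted p = 0.402) without BAQ12-3.

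**Figure D3:**
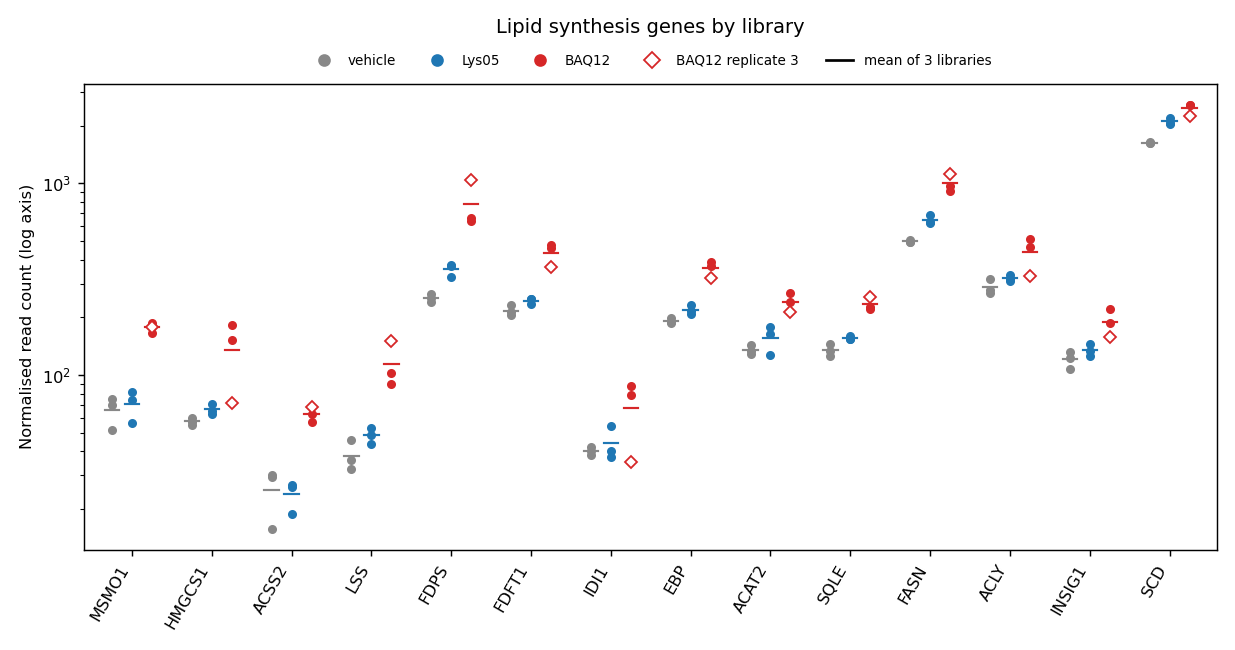
Normalised read counts on a log axis of 14 genes of cholesterol and fatty acid synthesis and sterol sensing in the vehicle (grey), Lys05 (blue) and BAQ12 (red) libraries, with 1 point per library, bars at the mean of 3 and an open diamond for BAQ12-3. The diamonds of HMGCS1 (71.6), IDI1 (35.2) and ACLY (329) lie close to or below the Lys05 libraries, whereas those of MSMO1 (178), FDPS (1041) and FASN (1122) stay with or above the other BAQ12 libraries.

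The same genes are set beside vehicle in the fit without BAQ12-3, with the caution that both comparisons use the same 3 vehicle libraries. Over the cholesterol synthesis list the median log2 difference from vehicle was 0.86 with BAQ12 (0.71 with BAQ12-3 included) and 0.11 with Lys05. For BAQ12, 13 of the 22 genes were called higher (0.743% of all genes tested were called higher), and for Lys05 1 was (0.238%). That gene was FDPS, which differed from vehicle by 0.50 with Lys05 (adjusted p = 0.000943) and by 1.37 with BAQ12 (adjusted p = 1.3e-11). FASN differed from vehicle by 0.37 with Lys05 (adjusted p = 0.00162) and by 0.92 with BAQ12, and SCD by 0.37 (adjusted p = 0.000239) and 0.65. At MSMO1 the log2 differences were 0.11 (95% interval -0.16 to 0.38) and 1.43, and at ACSS2 -0.03 (-0.43 to 0.37) and 1.27.

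Messenger RNAs encoded by mitochondrial DNA were the second group that differed. These 13 transcripts encode core subunits of the respiratory chain and of ATP synthase, and they are cut from long precursors along with tRNAs and rRNAs. With all libraries all 13 were higher with BAQ12 than with Lys05 and 4 were called (0.133% of all genes tested were called higher). Without BAQ12-3, 12 were higher and 6 were called (0.191%), none lower, and the median log2 difference was 0.35 (0.43 with BAQ12-3). In both groups 12 of the 13 were far below vehicle, in all 6 libraries below every vehicle library. At these 12 the libraries of both agents were lower than vehicle, and the called ones were less low with BAQ12. Summed over the 13 mRNAs, normalised counts were 35030, 37130 and 46918 with BAQ12, 27576, 28741 and 29403 with Lys05 and 122801 to 126864 with vehicle. The sum without BAQ12-3 was thus 28.8% of the vehicle mean for BAQ12 and 22.8% for Lys05. The median log2 difference from vehicle was -1.86 with BAQ12 (-1.70 with BAQ12-3 included) and -2.21 with Lys05. In each of these comparisons, which share the vehicle libraries, 12 mRNAs were called lower (0.562% of all genes tested with BAQ12 and 0.248% with Lys05 were called lower) and 1 higher.

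Those called in both fits were MT-CO1, MT-ATP6, MT-ND2 and MT-ND1. MT-CO1 (mitochondrial genome, 5904 to 7445), the catalytic subunit of cytochrome oxidase, was at 1495, 1561 and 1766 with BAQ12 and at 1113, 1071 and 1102 with Lys05. Its fold was 1.46 (log2 0.55, standard error 0.07, adjusted p = 0.00162) with all libraries and 1.39 (adjusted p = 6.67e-05) without BAQ12-3. MT-ATP6 (8527 to 9207), a membrane subunit of ATP synthase, was at 3477, 3768 and 4688 against 2482, 2636 and 2687, 1.52-fold and 1.39-fold higher (adjusted p = 0.0209 and 0.00203). MT-ND2 and MT-ND1, subunits of complex I, had folds of 1.55 and 1.35 with all libraries and 1.38 and 1.27 without BAQ12-3. In these 4 genes the BAQ12 and Lys05 libraries did not overlap, and BAQ12-3 was the highest of the 6. That library was above both other BAQ12 libraries in 11 of the 13 mRNAs, and it is also the library with the highest share of mitochondrial reads; the relation of the 2 was not tested. MT-CO2 was lowest in BAQ12-3, at 1896, 1633 and 901 with BAQ12 against 1350, 1222 and 1369. BAQ12-1 and BAQ12-2 were above and BAQ12-3 below every Lys05 library, and the gene was called in neither fit. Nuclear copies of mitochondrial genes and overlapping reading frames, such as MT-ATP8 with MT-ATP6, can share reads with these genes, and how such reads were assigned is not given in the sources used here.

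**Figure D4:**
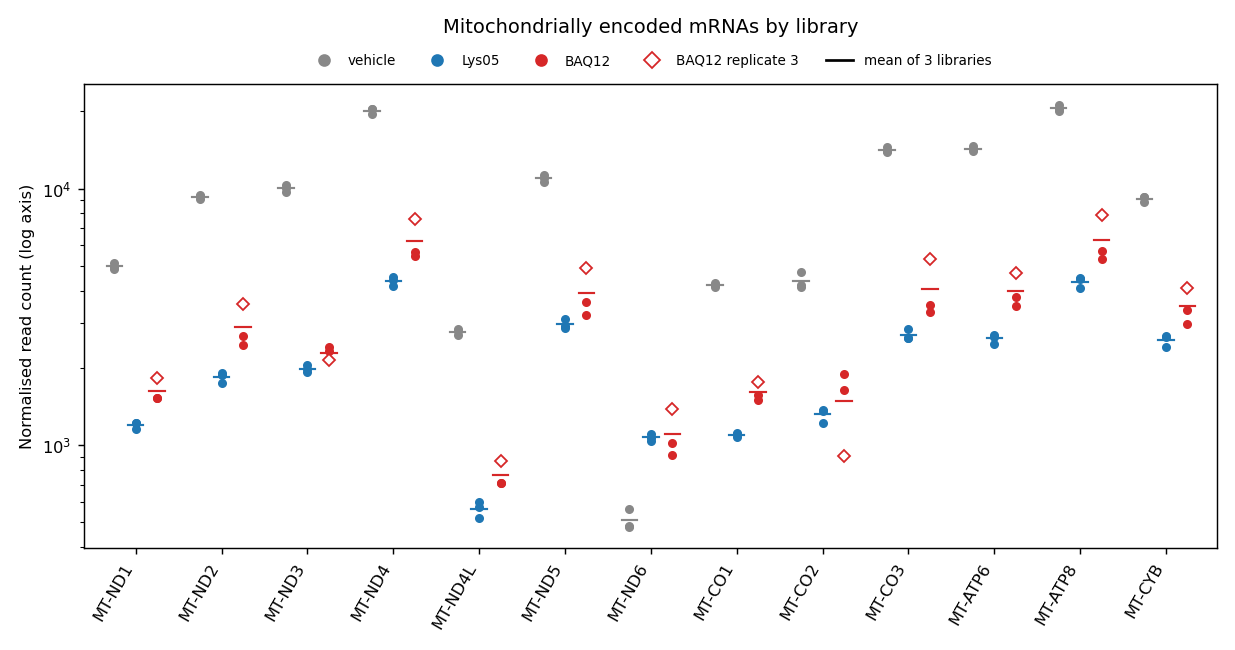
Normalised read counts on a log axis of the 13 mitochondrially encoded mRNAs in the vehicle (grey), Lys05 (blue) and BAQ12 (red) libraries, with 1 point per library, bars at the mean of 3 and an open diamond for BAQ12-3. In all but MT-ND6 the treated libraries lie below vehicle, and in MT-CO1 the BAQ12 libraries (1495 to 1766) lie between those of Lys05 (1071 to 1113) and vehicle.

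Other mitochondrial transcripts differed in both directions. Without BAQ12-3, 8 of the 20 tested rRNA and tRNA genes were higher with BAQ12 in the mean and 12 lower, and 15 and 5 with it. MT-ND6, the only one of the mRNAs on the light strand, was at 915, 1018 and 1379 with BAQ12, 1037, 1106 and 1064 with Lys05 and had a mean of 507 with vehicle, which makes it the single mRNA above vehicle. Its difference between the compounds was not called (log2 0.02 with all libraries and -0.15 without BAQ12-3, 95% interval of the latter -0.33 to 0.04). MT-TC, the cysteine tRNA gene (5761 to 5826, minus strand), was at 316, 326 and 139 with BAQ12, at 562, 489 and 447 with Lys05 and at 73.1, 78.2 and 79.9 with vehicle. The BAQ12 libraries were all below the Lys05 libraries and above the vehicle libraries. The log2 difference was -1.03 (adjusted p = 0.122) with all libraries and -0.63 (standard error 0.12, adjusted p = 0.00769) without BAQ12-3. In the latter fit MT-TC was the only one of 20 tested mitochondrial rRNA and tRNA genes to be called (0.0572% of all genes tested were called lower). MT-RNR1, the small rRNA, had a log2 difference of -0.27 (95% interval -0.41 to -0.13, adjusted p = 0.138) without BAQ12-3 and -0.10 with it, and MT-RNR2, the large rRNA, one of -0.10 (-0.24 to 0.04) and 0.03. MT-TQ, a tRNA gene also on the minus strand, was at 14.7, 10.2 and 3.77 with BAQ12 and 5.32, 6.25 and 8.40 with Lys05 (log2 0.81, 95% interval 0.01 to 1.61, adjusted p = 0.927, without BAQ12-3 and 0.32 with it). Whether reads were counted by strand is not stated, so at MT-TC and MT-ND6 transcripts of the 2 strands cannot be told apart. Whether reads at the tRNA genes came from the tRNAs or from the longer precursors was not tested. None of the 42 tested nuclear-encoded respiratory chain subunits was called in either fit, and their median log2 difference without BAQ12-3 was 0.05.

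The genes lower with BAQ12 formed no group of function. GPR126 (listed under this symbol for the adhesion receptor ADGRG6; ENSG00000112414, chromosome 6, 142301854 to 142446266) was at 381, 412 and 335 with BAQ12, 576, 532 and 545 with Lys05 and a mean of 541 with vehicle. BAQ12 was thus below both other groups, and the fold against Lys05 was 1.47 (log2 -0.55, standard error 0.09, adjusted p = 0.00748) with all libraries and 1.39 (adjusted p = 0.00343) without BAQ12-3. PHLDB2, which anchors microtubules near focal adhesions, was at 212, 258 and 214 against 351, 329 and 303 (log2 -0.53 and -0.49, adjusted p = 0.0267 and 0.0221). SCARNA9, a small RNA that guides modification of spliceosomal RNA, was at 259, 267 and 215 against 349, 348 and 351 (log2 -0.51 and -0.41, adjusted p = 0.0311 and 0.0361). It is annotated as an antisense transcript, so without strand its reads cannot be told apart from those of its partner. The long noncoding RNA RP11-1114A5.4 and the small nucleolar RNA SNORD13 were called lower only without BAQ12-3. SNORD13 was at 44.0, 38.3 and 142 with BAQ12 and 80.9, 68.7 and 70.9 with Lys05, so BAQ12-3 lay on the other side of Lys05 from its group. Whether reads at SCARNA9 and SNORD13 came from the small RNAs or from longer transcripts was not tested. One further gene, PFKFB2, which makes and degrades an activator of glycolysis, was at 62.4, 62.9 and 74.1 with BAQ12 and 36.2, 37.5 and 30.8 with Lys05. Its adjusted p-value was 0.0470 with all libraries and 0.0896 without BAQ12-3, although the groups did not overlap either way.

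No gene of the lysosome or of autophagy was called between the compounds. Of 33 gene groups described, 28 had no called member in either fit. The 16 tested subunits of the V-ATPase, the pump that acidifies lysosomes, had a median log2 difference of 0.06 with all libraries and 0.09 without BAQ12-3, and the 95% interval of each lay within a 2-fold difference. The 18 tested lysosomal membrane and sorting genes likewise all had intervals within 2-fold, with medians of -0.02 and 0.06. Among 32 tested lysosomal hydrolases and activators the median was -0.0011 and 0.06, and 24 and 25 intervals lay within 2-fold. The intervals of the other members reached beyond 2-fold. The 12 cathepsins and cystatins (medians -0.03 and -0.04), the 15 autophagy receptors and ATG8 genes (0.05 and 0.07) and the 29 autophagosome formation genes (0.04 and 0.03) were similar. The 19 tested endolysosomal ion channels and carriers had medians of 0.01 and 0.10. Those of the 19 tested genes of the TFEB family and lysosomal mTORC1 regulation were 0.18 and 0.14. Against vehicle, in the fit without BAQ12-3, 1 of the 32 hydrolases and activators and 2 of the 15 receptors were called higher with BAQ12. So were 1 of the 19 channels and carriers and 2 of the 19 TFEB and mTORC1 genes. With Lys05 none was, and in the other lists of this paragraph none was with either agent. Over all genes tested, 0.743% were called higher with BAQ12 and 0.238% with Lys05. Both comparisons share the vehicle libraries.

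Some lysosomal genes were separate between the groups without passing the adjusted threshold. Over all genes, every BAQ12 library was above every Lys05 library for 5.49% and below for 5.47%, and without BAQ12-3 for 11.5% and 11.6%. SLC17A5, which exports sialic acid from lysosomes, was at 138, 125 and 161 with BAQ12 and 93.7, 85.4 and 98.0 with Lys05, with a log2 difference of 0.60 (95% interval 0.35 to 0.85, adjusted p = 0.0589) and 0.50 (0.24 to 0.76, adjusted p = 0.126) without BAQ12-3. NEU1, the lysosomal sialidase, was at 72.5, 56.1 and 46.5 against 43.7, 41.7 and 39.2, with a log2 difference of 0.46 (0.06 to 0.86, adjusted p = 0.653) and 0.61 (0.21 to 1.01, adjusted p = 0.416). RRAGD, a Rag GTPase that signals nutrients at the lysosome, was at 183, 185 and 244 against 138, 139 and 137 (log2 0.55, adjusted p = 0.123, and 0.41, adjusted p = 0.195). SQSTM1, an autophagy receptor that is itself degraded by autophagy, was at 399, 430 and 578 against 333, 345 and 349 (log2 0.43, adjusted p = 0.245, and 0.27, adjusted p = 0.376). Other genes were separate in the lower direction. CTSB, a cathepsin protease, was at 246, 247 and 251 with BAQ12 and 282, 271 and 265 with Lys05 (log2 -0.14 in both fits, adjusted p = 0.702 and 0.998), and CTSC at 2504, 2542 and 2034 against 2781, 2665 and 2570 (log2 -0.19 and -0.08, adjusted p = 0.673 and 0.998). Of the 18 genes the study singled out, all tested, 13 were higher with BAQ12 in the mean, 15 without BAQ12-3, and none was called. Over all 10495 genes tested, 5103 and 5428 were higher in the mean. The study drew on other measures, among them BAQ13 RNA sequencing, qPCR and protein, so these counts are not a test of its statements. In the fit against vehicle without BAQ12-3, 2 of the 18 were called higher with BAQ12 and none with Lys05 (0.743% and 0.238% of all genes tested were). LAMP1, a main protein of the lysosomal membrane, had a log2 difference of -0.01 (-0.26 to 0.24) with all libraries and -0.02 (-0.27 to 0.23) without BAQ12-3.

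Genes of cell death and stress were not called either. The 13 tested BCL2 family genes had median log2 differences of 0.04 and 0.02. BBC3, which encodes the death factor PUMA, was at 664, 629 and 191 with BAQ12 and 606, 620 and 535 with Lys05, so that the sign of its difference (-0.44 with all libraries and 0.14 without BAQ12-3) was set by BAQ12-3. BAX, an effector of mitochondrial permeabilisation, was at 55.0, 62.9 and 160 against 53.2, 77.1 and 62.5, with BAQ12-3 in the opposite direction. In the integrated stress response, ASNS, the asparagine synthetase, was at 85.3, 96.9 and 100 against 131, 124 and 117, with a log2 difference of -0.39 (adjusted p = 0.421) and -0.44 (adjusted p = 0.326). Of 23 tested chaperones and unfolded protein response genes of the endoplasmic reticulum, 19 were lower in the mean with BAQ12, 18 without BAQ12-3, and the median log2 difference was -0.19 and -0.12. Among them HSPA5, the main chaperone of that compartment, was at 1833, 1823 and 1718 with BAQ12 and 2171, 2092 and 2023 with Lys05, a separation of small size (log2 -0.23, 95% interval -0.36 to -0.10, adjusted p = 0.293). Genes of DNA replication (31 of 39) and mitosis (32 of 40) also had mostly lower means with BAQ12, with median log2 differences of -0.13 and -0.07 and none called. Without BAQ12-3 the counts were 29 of 39 and 30 of 40, and the medians -0.13 and -0.06. Over all 10495 genes tested, 5392 had a lower mean with BAQ12 with all libraries and 5067 without BAQ12-3.

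**Figure D5:**
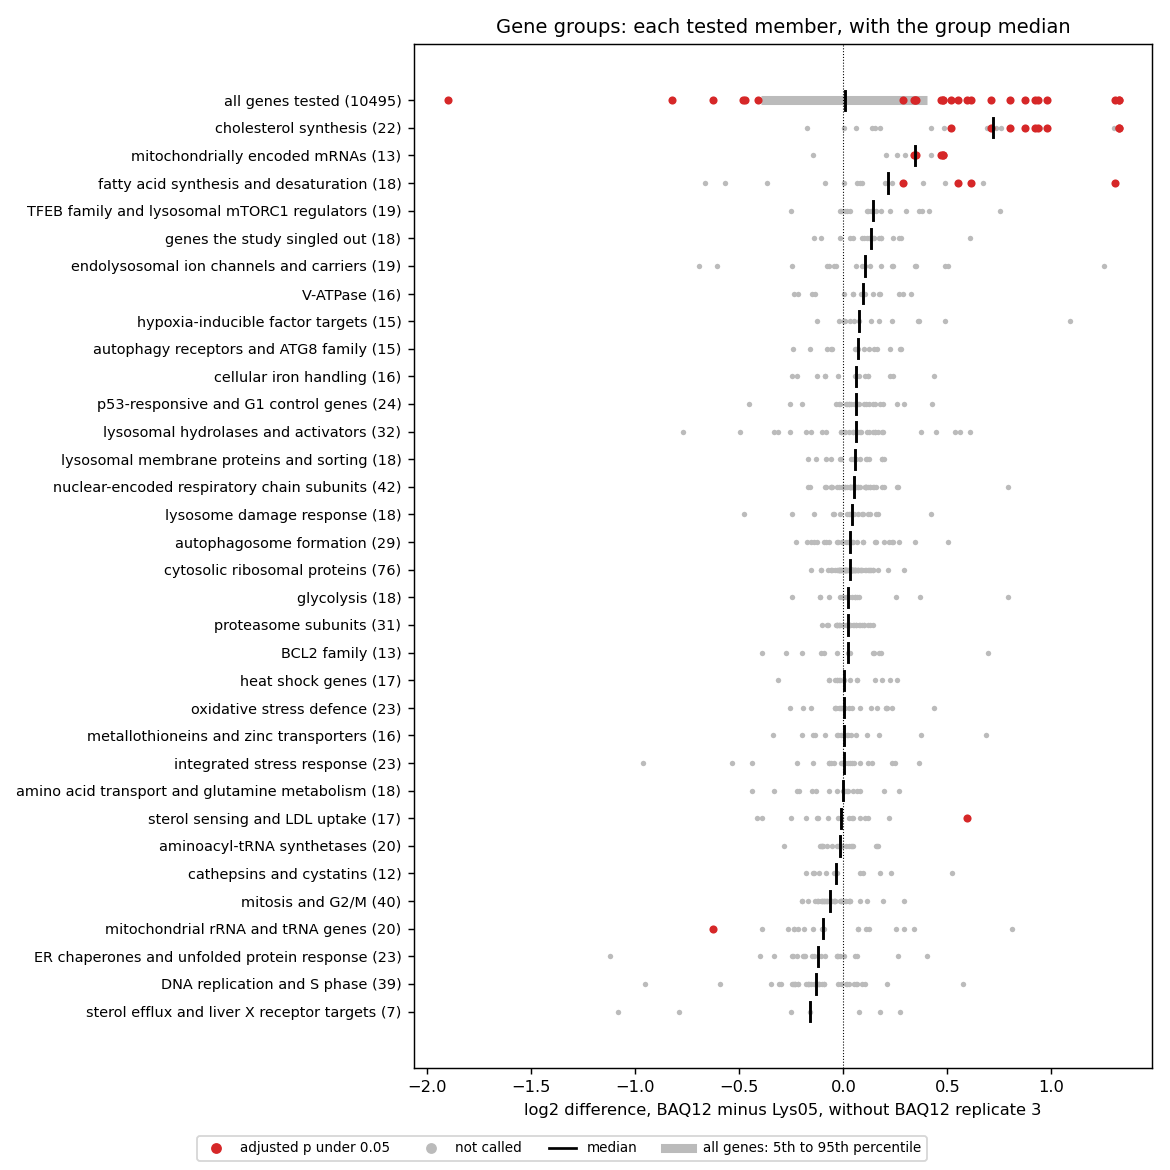
The log2 difference between BAQ12 and Lys05 without BAQ12-3 for every tested member of the 33 gene groups (points, number tested in parentheses), with called genes in red and the median of each group as a black bar; the top line gives all 10495 genes, with a grey bar from the 5th to the 95th percentile. The medians of cholesterol synthesis (0.72) and mitochondrially encoded mRNAs (0.35) lie furthest to the right, and red points occur in only 5 of the groups.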

How the data were processed

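RNA of MIA PaCa-2 cells (5 µM agent or vehicle, 24 h) was sequenced in 15 libraries, 3 in each of 5 groups taken from the sample titles. Values are signal values that the authors deposited as normalised gene read counts, 1 file per library. The submitters' processing notes name STAR, HTSeq and DESeq2 with GRCh38 (hg38), and versions are not given in the sources used here. The labels name a QuantSeq 3′ kit and the methods a directional NEBNext kit, so how strand was counted is not settled and levels were not compared between genes. Every deposited value was a whole multiple of the library's smallest step (tolerance 0.01), and the reads so recovered gave the depth and the counts for edgeR and DESeq2. The 92 spike-in identifiers were all at 0 and were left out.

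Genes passing edgeR's filterByExpr (minimum count 10, minimum total 15) were tested with limma 3.58.1 in R 4.3.3 on log2(value + 1), with a variance trend, 2-sided, over all 15 libraries and over 14 without BAQ12-3, so fold changes of low genes are understated. Genes with a Benjamini-Hochberg adjusted p-value under 0.05 over all 10495 genes are called higher or lower. Alternatives used edgeR 4.0.16 and DESeq2 1.42.0, other factors, pseudocounts, filters, library weights, a replicate block and libraries left out. The fits were also run on simulated libraries with known changes. No simulated library was set apart as BAQ12-3 is, so these runs do not show how the fits handle it.

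Named genes were up to 10 of the largest increases and decreases in each fit among called genes whose groups did not overlap, the genes the study named, up to 4 members of each list with the smallest p-values and the 5 highest and lowest genes of BAQ12-3. The list members MVD, SQLE, LBR, TM7SF2, SC5D, DHCR7, ACACA, ELOVL5, SREBF2, MT-CO2, MT-ND6 and MT-RNR2 lie outside this rule and were named after their values were seen. The members and gene lists were chosen with earlier results of these data known. Counting error alone limits a gene at 0 to 3 reads. Coordinates are from GENCODE 29 (GRCh38), in which 56531 of the identifiers were found. Values of some list members are not reported here, though the members are in the counts of their lists.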

Additional observations from a re-analysis of the deposited data

How the results depend on the processing

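No named gene called in the fit with all libraries or in an alternative to it had opposite signs in the 2. Among the 154 named genes, the sign of uncalled differences moved for 28 without BAQ12-3 and for 29 with library weights. SNORD13, called lower without BAQ12-3, ran from -0.84 to 0.11 on the log2 scale over the alternatives. With all libraries, the 17 genes past the adjusted p-value became 26 with DESeq2, 11 with no filter on low counts, 0 with only the 2 groups fitted and 176 with library weights, where 87 were higher. Those past the study threshold (52) became 80 and 8 with pseudocounts of 0.1 and 5, 382 with no filter and 7 with at least 10 reads in every library. Leaving out 1 replicate gave 8 to 26 genes past the adjusted p-value and 43 to 199 past the study threshold, with the first lowest without each Lys05 replicate and highest without BAQ12-3, and the second lowest without BAQ12-3 and highest without BAQ12-1. Without BAQ12-3, the 26 called genes became 71 with only the 2 groups fitted, 64 with library weights and, in an alternative chosen after seeing the data, 54 without BAQ13-1. The 43 past the study threshold became 27 with DESeq2, 5 with a pseudocount of 5, 356 with no filter and 4 with at least 10 reads. Leaving out 1 further replicate gave 10 to 19 and 57 to 85 genes. The causes were not tested.

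Whether the replicate numbers pair the libraries was not settled. Deviations of same-numbered libraries correlated at 0.11, 0.06 and 0.20, and those of other pairs at -0.17 to 0.08. BAQ12-1 and BAQ12-3 correlated best with the Lys05 library of the same number, and BAQ12-2 with Lys05-1. With a replicate block, 16 and 24 genes passed the adjusted p-value and 53 and 49 the study threshold. Of 17 alternatives to the fit with all libraries, MSMO1, FDFT1, EBP, FDPS and FASN were called in 16, GPR126 in 14, PFKFB2 in 7 and HMGCS1 in 3. The depth of 1586566 to 2500551 reads a library limits the precision at low counts.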

Other observations

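Further gene groups without a called member (limma) in either fit are given by their median log2 difference without BAQ12-3. The 23 integrated stress response genes had a median of 0.0011, the 15 targets of hypoxia-inducible factors 0.08, the 16 genes of iron handling 0.06 and the 23 of oxidative stress defence 0.0030. Lysosome damage response genes (18 tested) had a median of 0.04 and aminoacyl-tRNA synthetases (20 tested) one of -0.02. For some groups the count of higher members depended on BAQ12-3. Of 76 cytosolic ribosomal protein genes, 27 were higher with BAQ12 in the mean with all libraries and 58 without that library. Of 18 genes of amino acid transport and glutamine metabolism, 2 and 9 were higher, respectively.

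The 5 called-higher lipid genes HMGCS1, IDI1, ACLY, SCD and INSIG1 were those whose calls were gained when BAQ12-3 was left out, and each was lower in BAQ12-3 than in both other BAQ12 libraries. MT-ND4 and MT-CO3 were gained as well and were highest in BAQ12-3.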
